A study of Homo sapiens with 30 samples.

Results

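Among 130726 merged regions of open chromatin in LNCaP prostate cancer cells given low androgen, 678 were listed among the strongest peaks of the low-dose libraries and of no vehicle or 10 nM library. They were found by merging the overlapping spans of the 100000 peaks of highest −log10 p in each of 9 low-dose peak lists (0.03, 0.06 and 0.1 nM R1881, chromosomes 1 to 22 and X). A merged region was kept when at least 4 of the 9 shortened lists covered it and none of the 100000 strongest peaks of the 3 vehicle and 3 10 nM lists touched it. The choice used the −log10 p values of the 15 LNCaP libraries, so the LNCaP values of these regions across vehicle, low dose and 10 nM are a description and carry no test. A region counts as listed where any peak overlaps it by at least 1 bp. The values went against calling these regions open at low doses only: 659 of the 678 (97.2%) had a peak in at least 1 full 10 nM list, below its 100000 strongest. They are therefore called low-dose-listed regions, after the rule.

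Open chromatin was measured by Omni-ATAC-seq, in which the transposase Tn5 inserts sequencing adapters into accessible DNA, in 2 established human prostate cancer lines. LNCaP is androgen-dependent and carries a mutant androgen receptor, and VCaP carries an amplified receptor gene and a fusion of TMPRSS2 to ERG. Both lines were first starved of steroids for 48 hours (8% serum treated with charcoal) and then exposed for 24 hours to vehicle or to R1881, a synthetic androgen. The LNCaP groups were vehicle, 0.03, 0.06, 0.1 and 10 nM, with replicate numbers 3, 4 and 5. The VCaP groups were vehicle, 0.01, 0.03, 0.06 and 10 nM, with replicate numbers 1, 2 and 4, which makes 3 libraries in each of 10 groups. The design text states an interest in chromatin that is more open at low than at high androgen, beside growth responses that are not linear with dose. The labels do not say that replicates came from separate cultures, so p-values measure only the spread between these samples, which may be technical.

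The androgen receptor is a nuclear receptor that moves into the nucleus on binding its hormone and attaches to DNA at palindromic response elements, mostly in enhancers far from promoters. In luminal prostate cells it works with the pioneer factor FOXA1 and with cofactors that open nucleosomes, and it both induces and represses genes. Low androgen is known to stimulate, and high androgen to restrain, the growth of these lines. An ATAC-seq peak marks accessible DNA and does not show which protein opened it, or which gene it serves. Genes named below are the nearest protein-coding gene bodies within 100 kb and are not shown to be regulated from the region.

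The deposited LNCaP lists had between 135254 and 223998 peaks each, with read depth not recorded. Background pileup, which can be recovered from the peak values, was 3.06 to 5.26 for LNCaP and 1.09 to 2.74 for VCaP. Its lowest values, 1.14 and 1.09, belonged to VCaP vehicle replicates 1 and 2. In each library 9 or 10 of 10 prostate epithelial markers had an open gene end (a peak at most 1 kb away). Basal markers were open in 3 to 5 of 9, immune markers in 3 to 7 of 11, LNCaP stromal markers in 3 to 6 of 10 and neuroendocrine markers in 10 or 11 of 12. Housekeeping genes were open in 18 of 18. Nearly all epithelial and nearly all neuroendocrine markers were thus open, so these counts do not tell those cell types apart.

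Most of these regions were distal, and their sequence was not read here because no genome of the files' build was supplied. Of the 678, 25 overlapped a RefSeq promoter window (GRCh38.p14, 250 bases before to 50 after a gene's start), and 15 held at least 1 window whole. These 4 windows are shown because they are stretches of the regions themselves. Those of B4GALT2 and TMEM150C lie in regions of 6 and 5 low-dose lists, the most among regions holding a whole window, and that of B3GALT2 (4 lists) is poor in GC, at 36.7%. B4GALT2 and B3GALT2 encode galactosyltransferases that extend glycans, and TMEM150C encodes a membrane protein. Capitals mark matches on either strand to the androgen receptor half-site AGAACA, the full response element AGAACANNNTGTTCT or the forkhead motif TGTTTAC. They also mark the AP-1 motif TGANTCA, the motif AGATAA of GATA factors, the ETS motif CCGGAAG and the E-box CACGTG.
B4GALT2, chr1:43979687-43979986, plus strand: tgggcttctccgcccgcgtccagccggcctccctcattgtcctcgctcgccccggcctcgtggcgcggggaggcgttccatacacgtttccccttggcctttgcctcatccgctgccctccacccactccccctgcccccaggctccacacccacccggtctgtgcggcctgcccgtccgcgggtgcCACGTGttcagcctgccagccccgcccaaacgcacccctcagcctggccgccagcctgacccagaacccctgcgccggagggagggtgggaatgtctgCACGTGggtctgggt
B4GALT2, chr1:43980255-43980554, plus strand: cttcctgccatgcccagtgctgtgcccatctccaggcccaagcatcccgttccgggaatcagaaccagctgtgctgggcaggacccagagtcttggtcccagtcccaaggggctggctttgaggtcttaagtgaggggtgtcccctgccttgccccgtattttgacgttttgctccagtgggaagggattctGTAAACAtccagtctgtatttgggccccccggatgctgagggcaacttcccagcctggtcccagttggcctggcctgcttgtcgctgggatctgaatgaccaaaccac
TMEM150C, chr4:82561939-82562238, minus strand: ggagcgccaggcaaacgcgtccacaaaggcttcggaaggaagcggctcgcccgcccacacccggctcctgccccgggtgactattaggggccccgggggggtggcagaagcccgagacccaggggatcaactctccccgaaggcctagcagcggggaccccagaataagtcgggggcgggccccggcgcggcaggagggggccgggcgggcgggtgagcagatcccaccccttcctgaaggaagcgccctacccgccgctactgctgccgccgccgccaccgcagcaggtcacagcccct
B3GALT2, chr1:193186564-193186863, minus strand: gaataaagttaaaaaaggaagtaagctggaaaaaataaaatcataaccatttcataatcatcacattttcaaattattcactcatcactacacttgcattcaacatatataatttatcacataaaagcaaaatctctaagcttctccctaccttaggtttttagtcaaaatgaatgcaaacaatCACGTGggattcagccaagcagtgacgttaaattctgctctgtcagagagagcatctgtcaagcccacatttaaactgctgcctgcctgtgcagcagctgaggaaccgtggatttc

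Over the 19 windows that lay wholly inside one of these regions, the median GC content was 57.7%, beside 58.7% over all 35116 promoter windows of the same 300 bases. The androgen receptor half-site was found in 2 of the 19 (10.5%), beside 14.8% of all windows. The full element was found in 0 of 19 and in 0.00285% of all windows. Forkhead, GATA and E-box letters were each found in 2 of 19 (10.5%), beside 3.42%, 10.3% and 7.26% of all, and AP-1 and ETS letters in 0 of 19, beside 7.71% and 10.3%. A half-site match includes any that lies within a full element, and a match or its absence says nothing of binding.

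The B4GALT2 region (chr1:43979661-43980575) shows how such a promoter came to be chosen. Its −log10 p was 0, 2.80 and 2.04 in the vehicle libraries, 5.66, 2.14 and 6.65 at 0.03 nM, and 5.14, 5.02 and 14.0 at 0.06 nM. It was 6.87, 9.75 and 27.2 at 0.1 nM and 8.31, 13.7 and 12.6 at 10 nM, where 0 means that no peak was listed. The 10 nM values lay within the range of those at 0.1 nM, and all 3 were above every vehicle value. At TMEM150C the vehicle values were 0, 5.25 and 0, those of the low doses ran from 4.72 to 8.41, and those at 10 nM were 6.51, 12.6 and 5.77. Vehicle replicate 4 and all 10 nM libraries thus had a peak there as strong as some at low dose. In VCaP, the TMEM150C promoter ranked between percentile 75.1 and 91.2 of the 100000 strongest peaks in all 15 libraries.

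Few of these regions lay at promoters, and 25 (3.69%) overlapped a promoter window. A gene end lay within 1 kb of 38 (5.60%), beside 15.6% of all 90409 regions in at least 4 low-dose lists. Against other regions in as few lists, both shares were instead higher. Of the 542 in exactly 4 or 5 lists the share was 6.27%, beside 4.32% of the 11775 other regions in 4 or 5 lists, and 4.06% overlapped a promoter window, beside 2.24%. The median width of these 542 was 619.5 bp, beside 626 bp for the other regions in 4 or 5 lists. They lay inside a gene body in 54.4% of cases, beside 49.7%, and on chromosome X in 4.61%, beside 3.12%. A gene lay within 100 kb of 560, which named 536 different genes. PPP3CA, the catalytic alpha subunit of the phosphatase calcineurin, was nearest to 4 regions, the most of any gene.

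Most of the regions passed the rule by the smallest number of lists. There were 374 in exactly 4 low-dose lists, 168 in 5, 78 in 6, 42 in 7, 11 in 8 and 5 in all 9. Among all merged regions, the share chosen fell from 5.84% of those in exactly 4 lists to 0.622% of those in 7 and 0.00891% of the 56133 in all 9. Of the 678, 522 were listed at each of the 3 low doses at least once, and 80 in at least 2 libraries of each dose. Just inside the threshold stood regions within STK10, MGST2 and RHPN2, in 4 lists with mean percentile ranks of 0.883, 1.01 and 1.04 over the 9 lists. Just outside stood regions in 3 lists near ACTA1, at chr4:189613014-189613908 and near SARNP, with mean ranks of 13.7, 13.5 and 12.1. Those are the lowest-ranked inside and the highest-ranked outside, and over all 374 regions in 4 lists the median mean rank was 5.60, beside 3.92 for the 894 left out in 3 lists.

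Replicate 5 contributed fewer of the regions than replicates 3 and 4 did. The shortened lists held 389, 363 and 212 of them at 0.03 nM (replicates 3, 4 and 5), 442, 445 and 272 at 0.06 nM, and 435, 405 and 268 at 0.1 nM. At each dose replicate 5 held the fewest. At 0.06 and 0.1 nM its full lists nevertheless held the most, 645 and 651, and its 100000th peak had a −log10 p of 12.2 and 13.4, against 5.89 to 7.06 in the other 4 libraries of those doses. The part of this difference in the choice of regions was not tested. With all 5 LNCaP libraries numbered 5 left out the rule found 515 regions, which overlapped 383 of the 678. That run had fewer low-dose lists to choose from and fewer lists to exclude by, so 515 and 678 are not directly comparable. It also kept 10 nM replicate 4, whose 100000th peak had the highest −log10 p of the LNCaP libraries (17.4). Deviations from the group mean in that library correlated with those of low-dose replicate 5 (0.188, 0.277 and 0.321). With low-dose replicate 4 the correlations were negative (-0.112, -0.154 and -0.167). The part of this library in the choice was not tested.

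**Figure D1:**
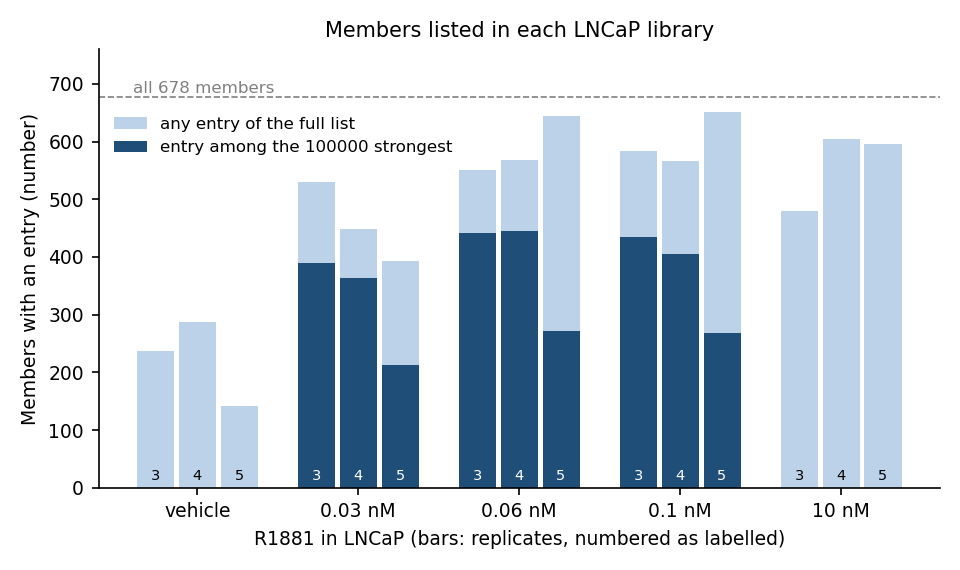
Number of the 678 low-dose-listed regions (y axis) with a peak in each of the 15 LNCaP libraries (x axis, grouped by dose), in the full list (light bars) and among the 100000 strongest peaks (dark bars). Dark bars are 0 for vehicle and 10 nM by the rule, while the light bars of the 10 nM libraries reach 479, 605 and 596, above those of vehicle at 237, 288 and 141.

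In the full lists, the regions were weak or absent with vehicle, stronger at 0.06 and 0.1 nM, and nearly as strong at 10 nM. The median over the 678 regions of the group mean −log10 p was 0.965 with vehicle, 4.03 at 0.03 nM, 8.08 at 0.06 nM, 8.75 at 0.1 nM and 7.30 at 10 nM. Fold enrichment over local background, averaged in the same way, followed the same order, with medians of 0.739, 2.18, 3.51, 3.78 and 3.27. In both measures a library without a listed peak counts as 0, so these medians mix how often a peak was listed with its strength. A fold below 1 is thus not a depletion. Where a peak was listed, the library medians of fold averaged 2.45 with vehicle, 3.09, 3.89 and 4.14 at the low doses, and 3.73 at 10 nM. Whether fewer cells were accessible or each cell was less so cannot be told apart in such bulk libraries. The other regions in 4 or 5 low-dose lists had medians of 4.25, 3.86, 8.57, 9.87 and 14.996, and so were highest at 10 nM. Over all regions in at least 4 lists the medians were 15.9, 15.8, 28.4, 31.5 and 43.5. The rule kept strong vehicle and 10 nM peaks out of the 678, while the other regions in 4 or 5 lists had failed it. Lower values of the 678 in those groups follow at least partly from this choice and are only described. The 678 also include regions in more than 5 lists.

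**Figure D2:**
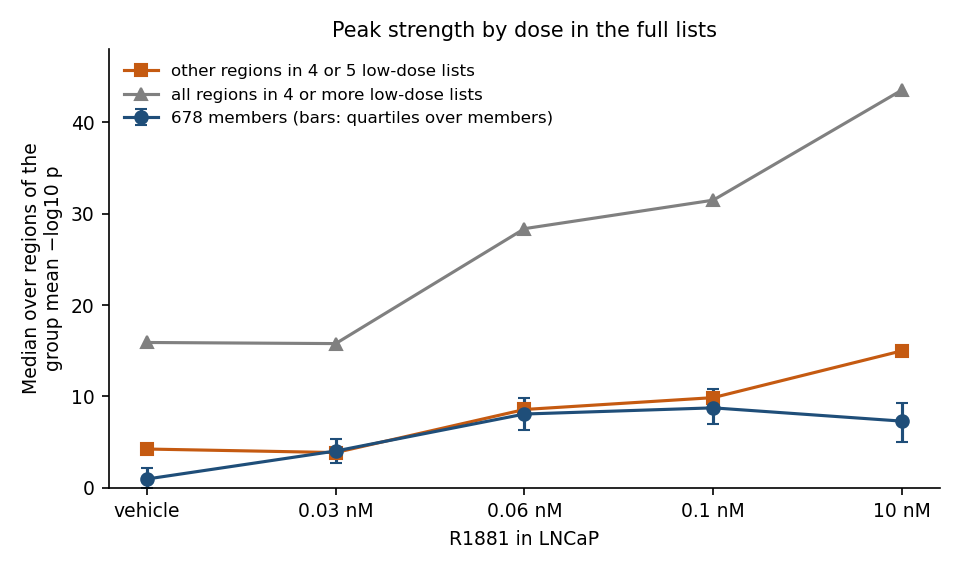
Median over regions of the group mean −log10 p in the full LNCaP lists (y axis) by dose of R1881 (x axis), for the 678 low-dose-listed regions with quartiles over regions, for other regions in 4 or 5 low-dose lists and for all regions in 4 or more. The 678 go from 0.965 with vehicle to 8.75 at 0.1 nM and 7.30 at 10 nM, while both other sets are highest at 10 nM. A library without a listed peak counts as 0. The rule barred strong vehicle and 10 nM peaks from the 678 only, so this contrast follows at least partly from the choice.

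Only 12 of the 678 regions (1.77%) had no peak in any of the 6 full vehicle and 10 nM lists, and 19 had none at 10 nM. Of the others, 422 had a peak in all 3 full 10 nM lists, 61 in all 3 vehicle lists and 55 in all 6. A peak at 10 nM without one in vehicle was listed for 267, and the opposite for 7. The 100000th peak had a −log10 p of 3.805 to 5.25 in the vehicle lists, 4.15 to 13.4 in the low-dose lists, and 10.1, 17.4 and 15.3 at 10 nM. A peak at 10 nM thus had to be stronger to enter the shortened list than in at least 7 of the 9 low-dose libraries.

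By −log10 p, 361 of the 678 (53.2%) had a higher mean at 10 nM than over the low doses, where the background over all regions in at least 4 low-dose lists was 81.6%. Their mean was highest at 10 nM of the 5 groups in 137 (20.2%), with a background of 65.3%. Every 10 nM library lay below every 0.06 and 0.1 nM library in 24 (3.54%), with a background of 3.63%. Every vehicle library lay below every 10 nM library in 345 (50.9%), with a background of 52.6%, and below every low-dose library in 51 (7.52%), with a background of 4.71%. The rule used these libraries, so nothing is read from these shares.

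Every 10 nM library lay below all 9 low-dose libraries at 2 regions (background 1.3%), those within ACACA and DPYSL5. ACACA encodes acetyl-CoA carboxylase, the rate-limiting enzyme of fatty acid synthesis, and DPYSL5 a protein of axon guidance. At ACACA (chr17:37352644-37353506) the −log10 p was 0, 0 and 2.18 with vehicle and ran from 5.60 to 7.62 at 0.03 nM, from 5.74 to 7.61 at 0.06 nM and from 7.54 to 11.6 at 0.1 nM. It was 3.74, 2.34 and 2.28 at 10 nM. At DPYSL5 (chr2:26946664-26947780) the low-dose values ran from 4.08 to 8.66, and those at 10 nM were 0, 3.34 and 3.53. Both regions are weak peaks at every dose. At 1 region, 26.1 kb from the actin regulator gene ENAH, every 10 nM library (7.73, 14.5 and 11.6) lay above all 9 low-dose libraries (0 to 7.64), with a background of 16.3%. Both genes and ENAH were named after their values were seen.

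The same rule was applied with every other choice of 3 of the 5 labelled LNCaP groups, keeping regions in at least 4 of those 9 lists and in none of the other 6. The 678 regions were the 9th largest of the 10 sets. The largest held 6753 regions listed at 0.06, 0.1 and 10 nM and not with vehicle or 0.03 nM, and 4043 were listed with vehicle, 0.03 and 0.06 nM. The smallest held 652, listed at 0.03, 0.06 and 10 nM. The low-dose set also had the lowest share without a peak in the other full lists, 1.77% beside 2.30% to 55.3% in the other 9 sets. The full lists excluded by differ between sets, and those of 10 nM were longest, with a mean of 203466 peaks beside 157367 for vehicle. The other sets that excluded by 10 nM lists had shares of 4.08%, 2.58% and 4.63%, and the sets listed at 10 nM 2.30% to 55.3%. The part of list length in these shares was not tested. Its share of regions in at least 7 lists was 8.55%, below 30.7% and 13.5% for the 2 largest sets and above the other 7, which reached at most 4.38%. In VCaP, the set listed at 0.01, 0.03 and 0.06 nM held 860 regions and was 7th of 10, in a range of 720 to 4173.

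**Figure D3:**
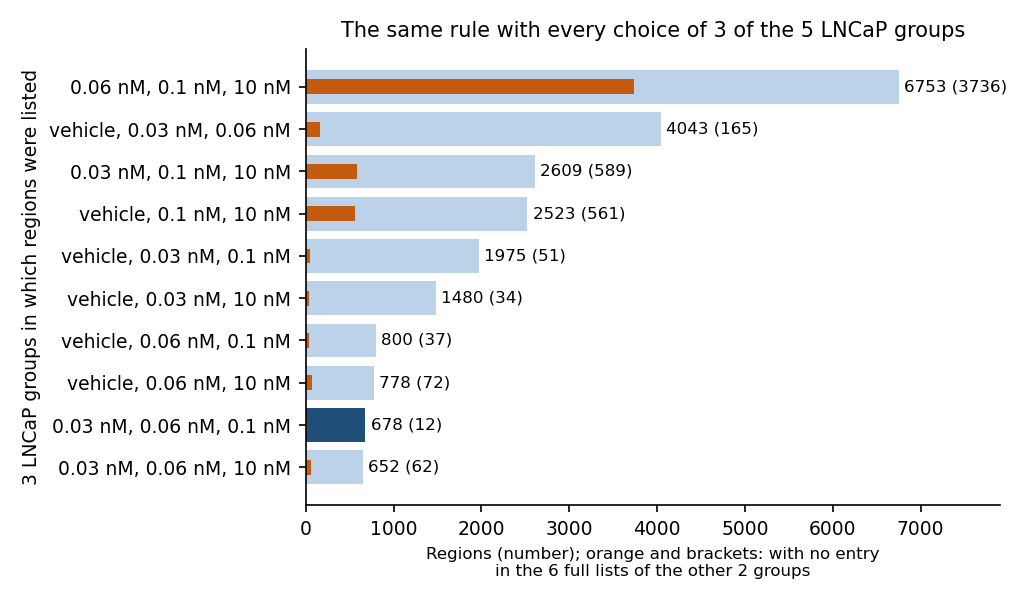
Number of LNCaP regions (x axis) that the rule finds for each choice of 3 of the 5 dose groups (y axis), with the number lacking any peak in the 6 full lists of the other 2 groups in orange and in brackets. The low-dose set (dark bar) holds 678 regions, 12 of them without such a peak, and the set of 0.06, 0.1 and 10 nM holds 6753, with 3736.

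Which regions the rule chose depended on how many peaks were kept per list. With 75000 peaks it found 508 regions, which overlapped 27 of the 678, and with 50000 it found 359, which overlapped 0 of them. With all entries it found 1080, which overlapped 12, and with the lists ranked by fold enrichment 718, which overlapped 328. A fixed −log10 p of at least 10 in every list left 169 regions, and a fixed fold enrichment of at least 4 left 196, overlapping 43 and 63 of the 678. There were 23 regions chosen under all 4 of the fold ranking, a −log10 q of at least 5, and both fixed thresholds, among them those near or within SKA1, SYNE2, ZBTB20, TAOK3, PARVB and L3MBTL4. These were picked after their values were seen. The 4 settings do not include the number of peaks kept. With 75000 peaks the regions of SKA1, SYNE2, ZBTB20 and TAOK3 were still chosen, and those of PARVB and L3MBTL4 were not.

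The region near C1GALT1 had the highest mean rank of the 5 listed in all 9 low-dose lists. C1GALT1 encodes the galactosyltransferase that builds the core of mucin-type O-glycans, and the region (chr7:7098406-7098824) lies 58.6 kb from its gene body. No vehicle library listed a peak there. The −log10 p was 13.8, 6.23 and 5.40 at 0.03 nM, 11.5, 18.9 and 21.2 at 0.06 nM, 19.2, 29.0 and 32.3 at 0.1 nM, and 0, 12.7 and 13.3 at 10 nM. The 0.1 nM libraries were highest as a group and overlapped those at 0.06 nM, and 2 of the 3 10 nM libraries held peaks within the range of the lower doses.

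The other 4 regions in all 9 lists were 2 intergenic sites and sites within CBR4, a carbonyl reductase gene, and TUT4, which encodes a terminal uridylyltransferase that tails RNAs. At chr5:12510053-12511493 the −log10 p was 20.7, 16.3 and 7.57 at 0.03 nM, 16.3, 19.4 and 33.7 at 0.06 nM, 9.80, 8.41 and 17.5 at 0.1 nM, and 8.60, 12.6 and 5.77 at 10 nM. This site was highest at 0.06 nM, with overlapping groups, and had no vehicle peak. At chr12:83475289-83476966 every 0.06 and 0.1 nM library (14.5 to 31.7) lay above every 10 nM library (7.18 to 12.6). At CBR4 and TUT4 the low-dose values ran from 5.33 to 23.3 and from 5.14 to 17.6, and those at 10 nM from 0 to 10.1 and from 6.51 to 14.1. Their 10 nM peaks overlapped the low-dose ones.

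The 11 regions in 8 lists included sites near or within TMPO (a nuclear lamina protein), SERPINB6 (an inhibitor of intracellular proteases), ADCY2 (an adenylyl cyclase), PAK1 (a kinase below Rac and Cdc42) and WIF1 (a secreted Wnt inhibitor). PPP1R1C, an inhibitor of protein phosphatase 1, and PRR3 were also among the nearest genes. Peaks were listed at 10 nM in all 3 libraries at TMPO, SERPINB6, PAK1, WIF1, PPP1R1C and PRR3, and in 2 of 3 at ADCY2. At WIF1 the 10 nM values were 5.22, 14.4 and 9.96, against 3.06 to 18.8 over the low doses. At PAK1 they were 2.49, 11.1 and 9.96, against 4.59 to 19.6. In these regions the groups overlapped.

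A site within EHF, an epithelial transcription factor gene of the ETS family, had the lowest mean −log10 p at 10 nM, 2.66, of the 20 named regions in most lists. It lies 12.5 kb from a gene end (chr11:34633618-34634153). Its −log10 p was 0 in all vehicle libraries, 9.89, 13.5 and 0 at 0.03 nM, 32.5, 18.01 and 17.9 at 0.06 nM, 19.3, 22.3 and 9.59 at 0.1 nM, and 7.97, 0 and 0 at 10 nM. All 6 libraries at 0.06 and 0.1 nM were above all 6 of vehicle and 10 nM. Within C2orf80, 2.53 kb from a gene end, the vehicle libraries were at 0 and the 0.1 nM libraries at 29.5, 15.4 and 28.3, with 4.62, 11.1 and 14.0 at 10 nM. Its 10 nM values overlapped those of 0.06 nM (9.36 to 20.1).

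**Figure D4:**
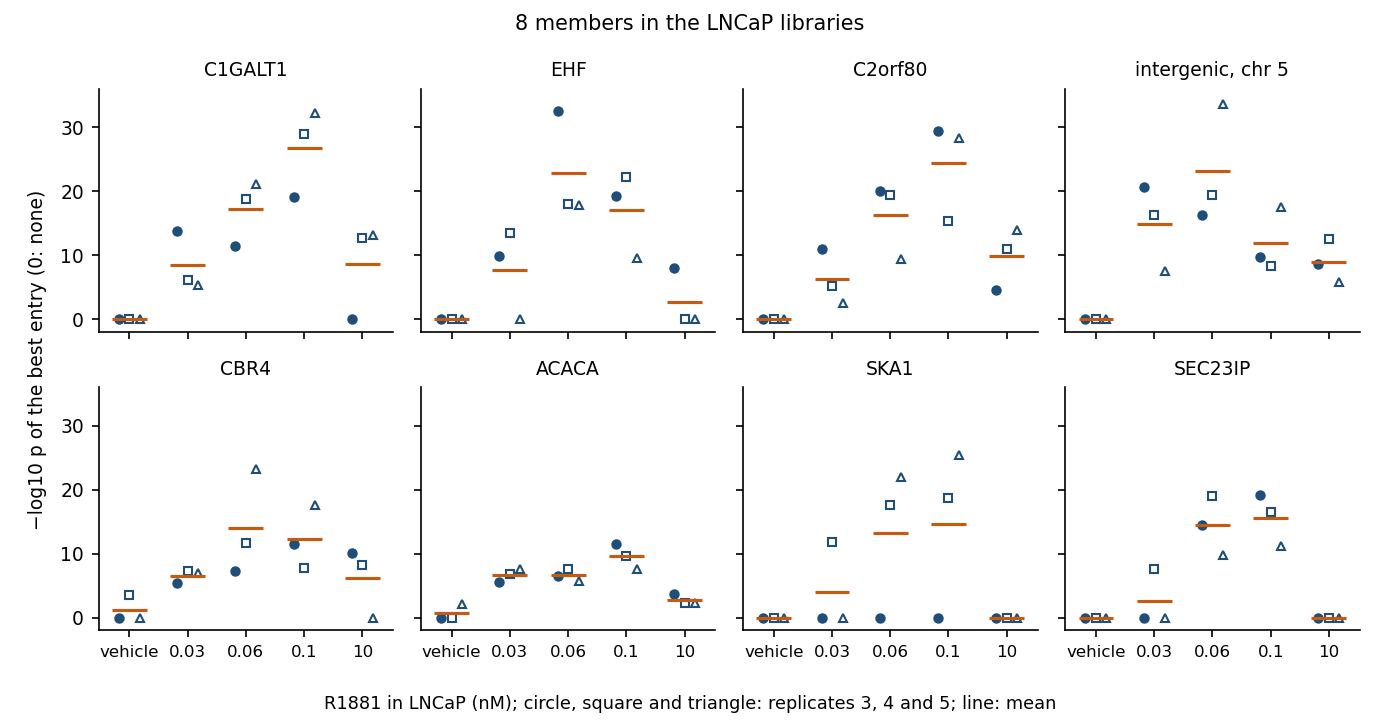
−log10 p of the best peak (y axis, 0 for none) in each LNCaP library by dose (x axis, nM) at 8 regions, with the mean as a line and replicates 3, 4 and 5 as circle, square and triangle. EHF shows all 0.06 and 0.1 nM points above those of 10 nM, C1GALT1, CBR4 and C2orf80 keep 10 nM points among the low-dose ones, and SKA1 and SEC23IP have none at vehicle or 10 nM.

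The 12 regions without any peak in the 6 full vehicle and 10 nM lists were near or within SKA1, SEC23IP, PARVB, ETFA, TNKS2, L3MBTL4, TRIM36, ADGRF1, SMARCD2 and PPFIA2, with 2 intergenic. They were named after their values were seen. SKA1 encodes a kinetochore protein, and the site 7.66 kb from it (chr18:50401834-50402259) had a −log10 p of 0, 11.8 and 0 at 0.03 nM, 0, 17.7 and 22.02 at 0.06 nM, and 0, 18.6 and 25.4 at 0.1 nM. Replicate 3 listed no peak there at any dose. The site within SEC23IP, which encodes a partner of the vesicle coat protein SEC23, was at 0, 7.63 and 0 at 0.03 nM, 14.5, 19.0 and 9.75 at 0.06 nM, and 19.1, 16.5 and 11.3 at 0.1 nM. All 6 libraries at 0.06 and 0.1 nM listed it. None of the 12 regions was in more than 5 low-dose lists, and each lacked a shortened-list peak in 4 or 5 of the 9 libraries.

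Counts over gene lists of known pathways are given as a description. Of 24 androgen-repressed genes with a region in at least 4 low-dose lists, 3 had a low-dose-listed one (PRUNE2, SI and OPRK1), which was 1.32% of that list's regions, beside 0.722% over all protein-coding genes. Low-dose-listed regions also lay near or within HPGD and ABCC4, of the list of genes that androgen induces, and EHF, of the list of luminal factors. Of 33 lipid and sterol genes 4 had one (ACACA, ACSL3, FADS1 and ABCA1, the last with 2), of 37 nuclear receptors and coregulators 2 (ESR1 and NCOA1), and of 17 unfolded protein response genes 1 (SEL1L). As shares of each list's regions these were 2.29%, 0.517% and 1.09%. Housekeeping genes had 2 of 18 (PGK1 and SDHA), or 2.94% of their regions, the highest share of the lists given here. Lists of the cell cycle (50 genes with 145 regions), cell cycle inhibitors (20 with 88), polyamine synthesis (12 with 50) and steroid conversion (25 with 97) held 0. So did the lists of basal (9 with 28), stromal (9 with 29), immune (6 with 21) and neuroendocrine (11 with 35) markers. With so few regions and a background of 0.722%, nothing is read from a count of 0.

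Among these genes the 10 nM values mostly lay within those of the low doses. At HPGD, the prostaglandin-degrading enzyme gene, peaks at 10 nM were 7.18, 9.62 and 7.77, against 0 to 13.8 at low doses. At ABCC4, an efflux transporter gene, they were 4.91, 8.04 and 8.93, against 0 to 14.1. PRUNE2, an androgen-repressed gene, had a peak in all 15 LNCaP libraries, with 2.36, 4.06 and 3.59 for vehicle and 7.18, 9.64 and 9.76 at 10 nM. At NCOA1, which encodes a steroid receptor coactivator, the 10 nM values were 4.62, 5.73 and 2.92, against 3.53 to 14.1 in the 8 low-dose libraries with a peak. Within ESR1, the estrogen receptor alpha gene, 4 low-dose libraries listed a peak of 5.14 to 16.1, and 1 of the 3 10 nM libraries did, at 13.6. ABCA1, which exports cholesterol, had 10 nM values of 4.62, 10.7 and 11.5 at a site 2.93 kb away, against 0 to 13.2.

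Between 0.03 and 0.1 nM in LNCaP the values are percentile ranks, from 0 for no peak to 100 for the strongest among the 100000 peaks kept. The rule chose the regions by their place in these same lists, so the ranks are described with no test. The mean rank was higher at 0.1 nM in 320 of the 678 and lower in 358. The median difference was -0.49 points, beside 0.07 over the 97947 regions in at least 3 low-dose lists. At chr5:12510053-12511493 the mean rank was 43.6 ± 12.0 (SD, n = 3) at 0.03 nM and 11.3 ± 3.14 at 0.1 nM. The site 0.444 kb from ITIH6, an inter-alpha-trypsin inhibitor family gene (chrX:54747776-54748474), was at 0 in all 0.03 nM libraries and at 31.0 ± 7.12 (SD, n = 3) at 0.1 nM. These sites were named after their values were seen.

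VCaP libraries were not used by the rule and give an independent measure of the same DNA. Of the 678 regions, 358 (52.8%) overlapped 1 of the 100000 strongest peaks of at least 1 VCaP library, beside 82.4% of all regions in at least 4 LNCaP low-dose lists. Among those in 4 or 5 lists the share was 53.3%, beside 62.4% of the other regions in 4 or 5. In VCaP, 239 were listed in at least 3 of 15 libraries, 32 in all 15, and another 239 were in no full VCaP list. There were 4 regions that also met the same rule in VCaP (0.590% of 678, and 0.465% of the 860 VCaP regions): near or within MAN2B1, LOC128706665 and FMN1, and at chr4:157722059-157722503. The first was in 6 of the 9 VCaP low-dose lists and the others in 4. These 4 were named after their values were seen. How many of all regions in at least 4 LNCaP low-dose lists met the VCaP rule was not counted. The 4 therefore have no background and are given as a count only.

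Of the 239 regions testable in VCaP, 1 was higher and 1 lower at 0.03 and 0.06 nM than with vehicle. The background over 104337 regions was 1.29% higher and 0.531% lower. An unadjusted p under 0.05 was found for 28 of the 239 (11.7%), beside 13.8% of all regions. Within ALDH1A2, which encodes an enzyme that makes retinoic acid (chr15:58026707-58027299), the percentile rank was 0 in the 3 vehicle libraries, 49.8, 0 and 64.5 at 0.03 nM and 70.6, 73.1 and 71.1 at 0.06 nM. The difference was 54.8 ± 13.2 points (SE, limma, adjusted p = 0.0357), with 5 of 6 low-dose libraries above vehicle. The site was also listed at 0.01 nM (35.6, 17.1 and 36.4) and at 10 nM (63.2, 34.7 and 52.0), so in VCaP 10 nM libraries listed it too. In LNCaP it had no vehicle peak and 10 nM values of 8.60, 9.62 and 10.7, against 2.19 to 16.7 at low doses.

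The region lower at low doses in VCaP was intergenic, at chr3:154713239-154714141. Its ranks were 48.7, 43.98 and 24.6 with vehicle and 24.7, 0 and 36.4 at 0.01 nM, and it was at 0 in all 9 libraries from 0.03 to 10 nM. It was listed in 5 VCaP libraries and so met the filter of at least 3 only through vehicle, the group where it is high. Its call is therefore given as a count and its ranks as a description. In LNCaP it was chosen for low-dose peaks, with −log10 p values of 0, 5.25 and 0 for vehicle and 3.06 to 17.3 at low doses. With 1 of the 9 libraries left out in turn, ALDH1A2 passed only without 0.03 nM replicate 2 (adjusted p between 0.0034 and 0.0947, limma). Without vehicle replicates 1 and 2, whose pileup was lowest, its difference was again 54.8 points. Every vehicle rank there is 0, so leaving out vehicle libraries cannot change the difference, and nothing is concluded from it. That fit, added after the data were seen, holds 1 vehicle library, so only its difference is given.

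At 10 nM against 0.03 and 0.06 nM in VCaP, 2 of the 239 regions were lower and 0 higher. The background was 0.979% lower and 3.76% higher. An unadjusted p under 0.05 was found for 16 of the 239 (6.69%), beside 13.3% of all regions. Within LRRTM4, a synaptic adhesion gene (chr2:77203339-77203912), the ranks were 61.3, 62.4 and 39.7 at 0.03 nM, 66.2, 29.3 and 48.0 at 0.06 nM, and 16.9, 0 and 16.6 at 10 nM. All 10 nM libraries were below all 6 low-dose ones, and the mean rank fell by 40.02 points (SE 10.97, limma, adjusted p = 0.0394). Vehicle ranks there were 67.2, 43.98 and 60.3, which overlapped the low-dose ranks. Within NEURL1, a ubiquitin ligase gene (chr10:103512392-103512976), ranks of 87.0, 69.4 and 77.5 at 0.03 nM and 86.2, 85.4 and 83.2 at 0.06 nM stood against 68.6, 56.3 and 65.7 at 10 nM. It fell by 17.9 points (SE 4.86, limma, adjusted p = 0.0375), again with vehicle (79.9, 66.4 and 82.2) near the low doses, and no 10 nM library was above any low-dose one. With 1 library left out in turn, LRRTM4 passed in 2 of 9 fits and NEURL1 in 1 of 9.

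With the replicate number as a block, which the pairing check allowed for this contrast, 6 of the 239 regions passed, 5 lower and 1 higher. The background was 1.51% lower and 4.54% higher. The check covered only the groups compared, while the fit also held the vehicle libraries. Replicate 1 of vehicle and of 10 nM had a correlation of 0.0458, below the 0.1 required, so the block was not met throughout. The sites within ZEB2, a repressor of epithelial genes, CHODL, a lectin-like membrane protein gene, and FBXL19, an F-box protein gene, were lower at 10 nM. They fell by 37.2, 38.6 and 32.8 points (limma with the block, adjusted p = 0.0184, 0.0197 and 0.0246, and without it 0.0650, 0.0658 and 0.0536). The site within KPNA1, an importin gene, was 23.5 points higher, but it was listed in 5 VCaP libraries and met the filter only through the 3 of 10 nM, so no p is given for it. At ZEB2 the vehicle ranks were 78.0, 84.3 and 54.9, at CHODL 72.7, 70.7 and 43.7 and at FBXL19 75.5, 79.2 and 52.5, all above the 10 nM ranks of the same site. The 5 lower regions were thus listed among the strongest peaks of the VCaP vehicle libraries. In LNCaP the rule itself barred strong vehicle peaks, so the lines cannot be compared on this point.

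**Figure D5:**
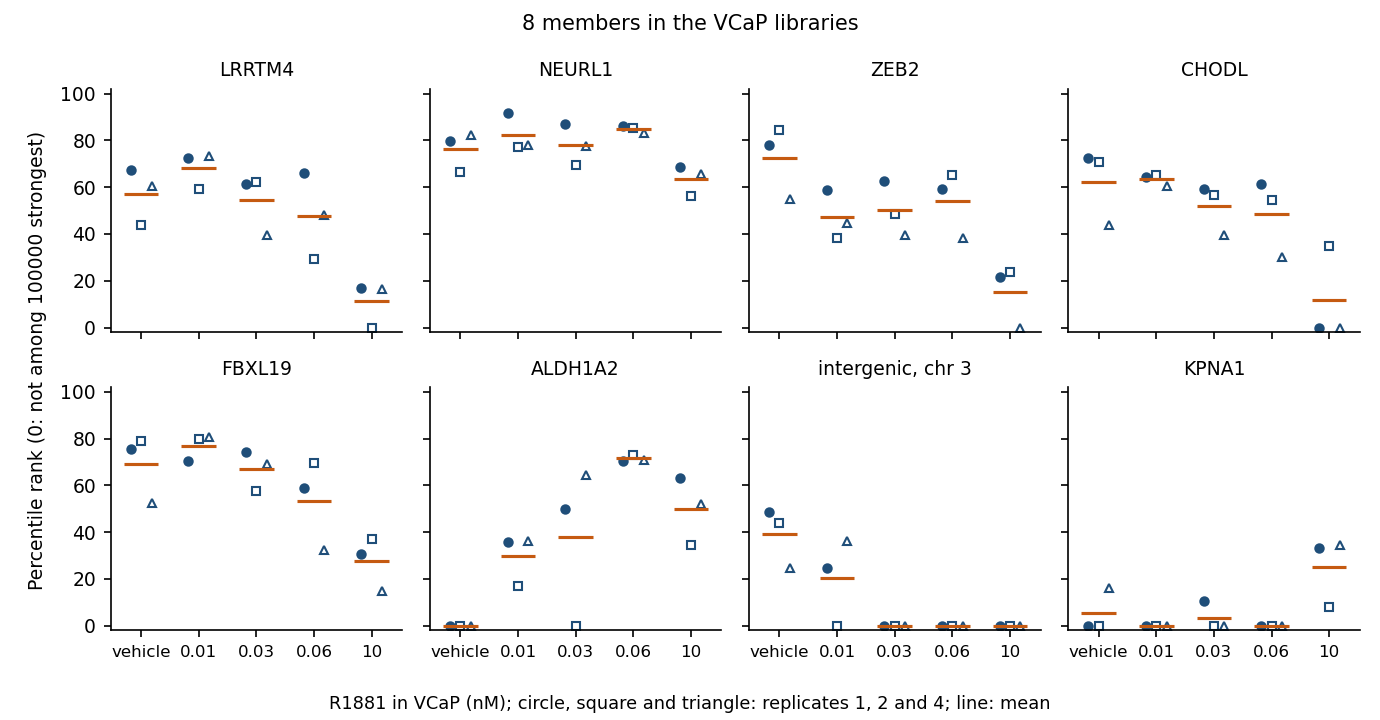
Percentile rank of the best peak among the 100000 strongest (y axis, 0 for none) in each VCaP library by dose (x axis, nM) at 8 low-dose-listed regions of LNCaP, with the mean as a line and replicates 1, 2 and 4 as circle, square and triangle. LRRTM4, ZEB2, CHODL and FBXL19 have all vehicle points above those of 10 nM, NEURL1 has 2 of 3 above them, ALDH1A2 has vehicle at 0, and KPNA1 has 10 nM points at 33.2, 8.2 and 34.3.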

How the data were processed

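Each of the 30 libraries was deposited as its own narrowPeak list. Per the submitters' processing notes, the tools were MACS2 2.2.7.1, deepTools 3.5.1, BWA 0.7.17 and Trimmomatic 0.39, with the build GRCh38. The deposited lists give for each peak the −log10 p and −log10 q, a score and a fold enrichment over local background, as the authors' peak caller wrote them, and end at a −log10 p of 2. Read counts are unknown, so no intervals are given.

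The members, gene lists and tests were chosen with earlier results of these data known. Overlapping spans of the 100000 peaks of highest −log10 p per list were merged. Each region was scored in each library by its best overlapping peak, as the percentile rank among those 100000 (0 for none) and, from the full list, as −log10 p and fold. Named regions are the 20 in most low-dose lists, those assigned to genes of the lists, those called in a test and those at the edge of the rule, and others are said to be named after their values were seen. Ranks were compared with limma 3.58.1 in R 4.3.3 (trended, robust, two-sided, Benjamini-Hochberg over all regions in at least 3 libraries), with Python 3.11.15, numpy 2.4.6, pandas 2.3.3, scipy 1.17.1 and matplotlib 3.10.9 for the rest. The limma step was tested on simulated data, in which 200 regions were changed by 60 points. Those values were normally distributed, held no 0 and had a spread scaled down from the real ranks. The simulation therefore checks the code and says nothing of how reliable the calls reported here are. Of the 678 regions, 239 passed the VCaP filter on low values. The planned fit of LNCaP 0.1 against 0.03 nM is given over all regions only, because the rule chose the 678 by the same ranks.

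Same-numbered libraries deviated together (every correlation over 0.1) for LNCaP 0.1 against 0.03 nM (0.170, 0.159 and 0.347) and for VCaP 10 nM against 0.03 and 0.06 nM (lowest 0.113), as seen in the values and not given by the labels. Alternatives tried were list length, ranking column, thresholds, overlap, filters, samples, blocking and leaving out each library. Sequences are RefSeq promoter windows of GRCh38.p14. A region and the gene list counts that include it are not reported here.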

Additional observations from a re-analysis of the deposited data

How the results depend on the processing

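The number of regions, 678, became 359 with 50000 peaks per list, 1080 with all peaks, 1572 and 304 with at least 3 or 5 low-dose lists, and 2217 when an excluding peak had to cover at least 50% of the region. Thresholds of −log10 p 10 and fold 4 in every list, chosen after the data were seen, gave 169 and 196. Leaving out 1 library gave 469 to 1297, with 1186 and 1297 without vehicle replicates 3 and 4 and 1144 without 10 nM replicate 3. The share without a peak in the 6 full lists, 1.77%, became 0.394% and 0% for regions chosen with 75000 and 50000 peaks, 7.37% when a peak had to cover at least 50% of the region, 17.4% with −log10 q of at least 5, and 3.69% without the libraries numbered 5 (added later). Leaving out 1 library gave 1.92% to 3.98%, the highest without 10 nM replicate 4 (3.98%) or 5 (3.83%). The low-dose set, 9th of 10 by size, was 7th with 75000 or 50000 peaks and 10th by fold. The cause of these changes was not tested.

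In VCaP, 1904 regions were called at low doses against vehicle. With the replicate block there were 3332, although same-numbered libraries did not all deviate together (lowest correlation 0.0926), and 3 of the 678 passed, LOC124906086 being added. There were 1238 with a peak in at least 1 library, 3273 with all peaks (3158 higher and 115 lower), 266 when a peak covered at least 50% of the region, 251 with −log10 q of at least 5, 1002 with only the groups compared, 1175 with 0.01 nM added and 889 without vehicle replicates 1 and 2, where the 1 vehicle library left is assumed to vary like the other groups. Leaving out 1 library gave 1112 to 2816, with 1112 and 1130 without 0.06 nM replicates 1 and 4. Of the 678, 0 were then called with a peak in at least 1 library, with 50% cover, with −log10 q, with only the groups compared or with 0.01 nM added, 1 with a peak in at least 8 libraries or without vehicle replicates 1 and 2, and 0 to 2 with 1 library left out.

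For 10 nM against low doses, 4939 regions became 3202 with a peak in at least 1 library, 762 with at least 8 (213 higher and 549 lower, against 3918 and 1021), 2947 by normal scores, 2443 with 50% cover, 1530 with −log10 q and 7412 with 0.01 nM added. Leaving out 1 library gave 2591 to 4683, the lowest without 10 nM replicates 1 (2591) and 4 (2898). Of the 678, 2 were called, and 6 with the replicate block, 6 with 0.01 nM added, 4 with all peaks, 1 by normal scores or with only the groups compared, 0 with a peak in at least 1 or 8 libraries, 50% cover or −log10 q, and 0 to 3 with 1 library left out.

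For LNCaP 0.1 against 0.03 nM, 2189 regions became 7394 with the replicate block, 1183 with a peak in at least 1 library, 1131 by normal scores, 894 with 50% cover and 858 with only the groups compared. Leaving out 1 library gave 158 to 1749, with 202 and 158 without 0.1 nM replicates 3 and 4. All named calls in VCaP kept their sign in the alternatives that gave a value, but most did not pass there. For 10 nM against low doses the adjusted p (limma) was over 0.05 in 13 of 19 alternatives for LRRTM4 and 14 of 19 for NEURL1. For ZEB2, CHODL and FBXL19 it was over 0.05 in 15, 12 and 14 of 19. With 1 library left out in turn, ALDH1A2 passed in 1 of 9 fits. Depth is unknown, so a library without a listed peak may hold weaker signal.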
